A study of Mus musculus with 12 samples.

Results

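The transcriptome of KO3, a clone of Crls1-targeted NIH-3T3 cells, was compared with that of wild-type (WT) cells across 14157 genes, 26.0% of the 54392 gene rows. A gene entered when 3 or more of the 6 KO3 and WT libraries reached a normalized count of 10. NIH-3T3 is an immortalised mouse embryonic fibroblast line, and total RNA depleted of cytoplasmic ribosomal RNA was sequenced from 3 libraries each of KO3, KO1, KO2 and WT. By its title, the series asks how cardiolipin bears on the docking of mitochondrial ribosomes and on protein synthesis. KO3 has the label genotype Crls1KO3 and was grown from 1 sorted cell after transfection of a plasmid that encodes Cas9 and a guide RNA against Crls1. KO1 and KO2 (genotypes Crls1KO1 and Crls1KO2) were made in the same way, and WT has the genotype Crls1WT. All groups were grown in the same medium, with glucose, pyruvate, uridine and foetal bovine serum. KO3 is a single clone, so an effect of the loss of Crls1 and a trait of that clone cannot be told apart in its comparison with WT. The labels give neither the guide's cut site nor the handling of WT cells before RNA extraction, and they do not say whether a group's libraries come from separate cultures. The p-values therefore rest on the spread among these libraries alone, and that spread may be technical.

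Depth was 34621160 to 42211807 reads in KO3 and 32929242 to 41608389 in WT, recovered from the deposited values. Log2 values correlated across genes at 0.989 to 0.990 within KO3, at 0.982 to 0.991 within WT and at 0.906 to 0.919 between KO3 and WT libraries. One WT library, replicate 1, stood apart: the chi-square of its reads over the degrees of freedom was 55.9 and 59.3 to its group mates, which were at 18.3 to one another. Gene-list counts that moved most without it are given both ways. Mitochondrial genome transcripts took 5.75% to 5.96% of reads in KO3 and 5.05% to 5.36% in WT. Of 16 fibroblast markers 14 were tested, and their sum was 1001390 to 1025020 normalized counts in KO3 and 962103 to 1048200 in WT. Fn1, Col1a2 and Lox made up most of that sum, so it shows only that abundant fibroblast markers were present in both. Of the 14, 5 rose, 3 fell and 6 were not called, against 27.9% of all genes tested that rose and 28.3% that fell. Among the rises, Col3a1 averaged 3664 in KO3 and 148 in WT. The 803 genes with exactly 3 libraries at the minimum had a median mean of 13.0 normalized counts, and the 468 with 2 such libraries were left out. Of the 803, 307 passed through KO3 only and 299 through WT only. The filter fixed the direction of these genes, so their values are a description and no p-value is printed for them. They were kept in the fit and in the counts of genes and list members called below. Those counts are thus in part fixed by the filter. Such members were 0 of 34 in the integrated stress response, 0 of 21 in cholesterol synthesis, 1 of 23 among NRF2 targets, 4 of 29 among matrix glycoproteins and proteoglycans, 4 of 25 among interferon-stimulated genes and 4 of 15 among cytokines and chemokines, and at most 2 in each other list described.

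Crls1 encodes cardiolipin synthase, whose product is the signature lipid of inner mitochondrial membranes and binds respiratory complexes and carriers. Mitochondrial and amino acid stress can activate the integrated stress response, in which translation is restrained and the transcription factor ATF4 induces amino acid synthesis, transport and tRNA charging. Oxidative stress acts through NRF2, which induces glutathione and detoxification genes, and SREBP2 drives the enzymes of cholesterol synthesis when sterols are low.

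Promoter windows of 5 genes are shown because their lists moved mostly in 1 direction and each window holds the motif known for the list's regulator. They are RefSeq windows on GRCm38.p6, from 250 bases before to 50 after the gene start, 5′ to 3′ on the gene's strand, and capitals mark the motif on either strand. Trib3, a pseudokinase that restrains ATF4, and Slc7a11, the cystine transporter, hold the ATF4 composite element TGATGNAA. Gsta3, a glutathione transferase, and Nfe2l2, which encodes NRF2 itself, hold the antioxidant response element TGACNNNGC. Hmgcs1, an early enzyme of cholesterol synthesis, holds the sterol regulatory element TCACNCCAC.
Trib3, chr2:152344011-152344310, minus strand: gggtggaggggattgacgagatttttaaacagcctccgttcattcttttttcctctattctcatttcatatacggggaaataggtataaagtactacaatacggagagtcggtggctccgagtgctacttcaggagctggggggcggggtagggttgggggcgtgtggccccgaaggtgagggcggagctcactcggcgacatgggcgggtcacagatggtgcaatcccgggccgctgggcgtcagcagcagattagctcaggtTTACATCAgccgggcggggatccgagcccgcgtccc
Slc7a11, chr3:50443564-50443863, minus strand: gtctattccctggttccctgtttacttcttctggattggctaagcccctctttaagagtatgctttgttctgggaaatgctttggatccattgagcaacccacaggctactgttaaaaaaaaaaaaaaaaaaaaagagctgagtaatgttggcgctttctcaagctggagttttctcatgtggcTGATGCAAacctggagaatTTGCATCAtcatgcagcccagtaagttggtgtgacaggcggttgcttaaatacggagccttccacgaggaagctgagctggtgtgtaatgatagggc
Gsta3, chr1:21240335-21240634, plus strand: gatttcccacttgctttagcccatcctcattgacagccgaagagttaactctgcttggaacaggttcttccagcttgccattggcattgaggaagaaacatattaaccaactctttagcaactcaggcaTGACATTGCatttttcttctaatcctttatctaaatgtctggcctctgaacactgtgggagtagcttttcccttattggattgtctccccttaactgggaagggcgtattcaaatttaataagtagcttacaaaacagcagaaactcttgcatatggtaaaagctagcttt
Nfe2l2, chr2:75704614-75704913, minus strand: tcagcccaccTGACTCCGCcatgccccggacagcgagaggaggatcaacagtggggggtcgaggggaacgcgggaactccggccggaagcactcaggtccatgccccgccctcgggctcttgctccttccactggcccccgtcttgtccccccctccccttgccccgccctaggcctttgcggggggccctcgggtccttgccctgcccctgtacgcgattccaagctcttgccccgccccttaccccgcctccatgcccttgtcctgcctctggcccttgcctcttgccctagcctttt
Hmgcs1, chr13:119690101-119690400, plus strand: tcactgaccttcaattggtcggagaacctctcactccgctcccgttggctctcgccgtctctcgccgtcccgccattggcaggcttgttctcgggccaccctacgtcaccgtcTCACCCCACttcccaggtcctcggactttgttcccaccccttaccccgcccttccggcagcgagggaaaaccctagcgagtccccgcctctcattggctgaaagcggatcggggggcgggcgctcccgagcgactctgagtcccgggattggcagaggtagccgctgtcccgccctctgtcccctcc
The ATF4 composite element stood in 28.1% of the 32 windows of integrated stress response genes and in 3.97% of all 32851 windows. The antioxidant response element stood in 36.4% of the 22 windows of NRF2 targets and in 12.4% of all windows. The sterol regulatory element stood in 1 of the 19 windows of cholesterol synthesis genes, the Hmgcs1 window shown, and in 0 of the 18 windows of sterol uptake and SREBP control, against 1.24% of all windows. CCAAT, bound by the SREBP partner NF-Y, stood in 73.7% of the cholesterol synthesis windows, against 37.4% of all. These matches cover only members that have a RefSeq window. The CArG box, bound by SRF, stood in 15.4% of the 26 windows of smooth muscle contractile genes, against 1.63% of all. The TEAD motif GGAATG stood in 61.9% of the 21 windows of YAP and TEAD targets and regulators, against 14.7% of all. A CArG box can hold the letters of a CCAAT box. A match is a description of letters and not a binding site.

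Crls1 RNA, the check of the targeted gene, was at 363, 372 and 408 normalized counts in KO3 and at 740, 873 and 834 in WT, with no overlap. Crls1 (ENSMUSG00000027357.16, chromosome 2, 132846666 to 132866785, GRCm38) averaged 381 ± 23.9 in KO3 and 815 ± 68.4 in WT (SD, n = 3 each), a log2 fold change of -1.09 (SE 0.09, limma adjusted p = 4.01e-07). A transcript can persist after its coding sequence is disrupted, so this value does not measure the protein. KO3 kept more Crls1 RNA than the mean of KO1 and KO2, by 0.49 (limma adjusted p = 0.00017).

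Of the 14157 genes tested, 7947 (56.1%) differed between KO3 and WT in limma at an adjusted p under 0.05. Of these, 3943 (27.9%) rose and 4004 (28.3%) fell. Each list or chromosome count for KO3 against WT below is to be read against these shares. Changes of at least 2-fold were fewer, with 1090 genes (7.7%) up and 1083 (7.65%) down, and 157 (1.11%) rose and 145 (1.02%) fell by at least 16-fold. The median log2 fold change over all genes was 0.00, and the median size among called genes was 0.57. KO3 and WT libraries did not overlap for 8455 genes (59.7%). Called genes were 44.5% of genes with a mean under 100, 56.4% of those between 100 and 1000 and 61.2% of those above. In bulk RNA, a change in the share of cells that express a gene and a change in RNA per cell cannot be told apart.

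**Figure D1:**
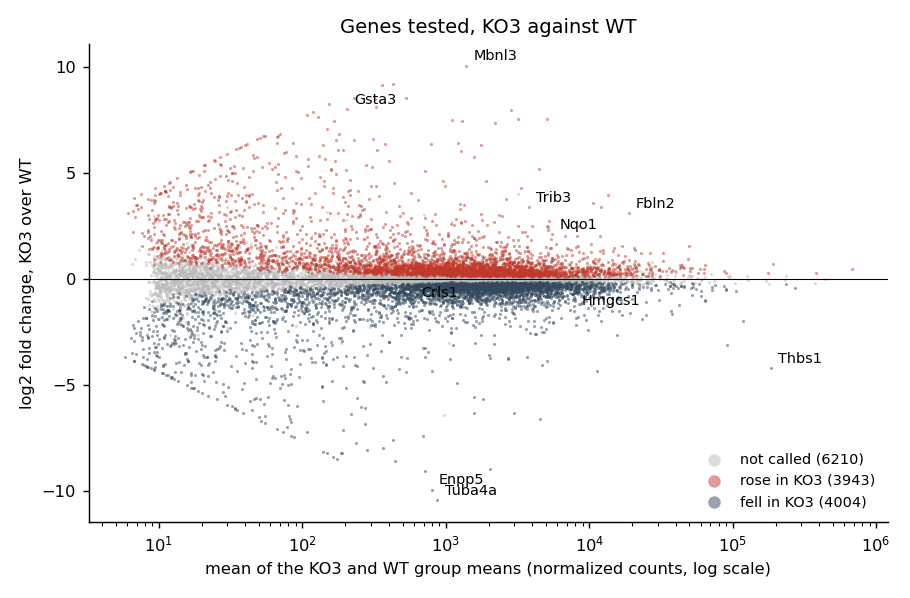
Each point is 1 gene: the mean of the KO3 and WT group means in normalized counts (log axis) against the log2 fold change, KO3 over WT. Rises (3943 genes) and falls (4004 genes) spread on both sides of 0, and 10 genes named in the text are labelled.

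Integrated stress response genes rose in KO3, with the highest share of rises among the lists with at least 10 tested genes. Of its 34 tested genes, 32 rose and 0 fell, against 27.9% and 28.3% of all genes, with 16 up at least 2-fold and a median log2 fold change of 0.92, against 0.00 over all genes. Trib3 (chromosome 2, 152337422 to 152344032), whose window is shown above, had 7415, 6585 and 6699 normalized counts in KO3 and 540, 704 and 751 in WT. Its log2 fold change was 3.39 (SE 0.10, limma adjusted p = 6.45e-11), a ratio of means of 10.4. Ddit3, which encodes the transcription factor CHOP, had 4466, 4101 and 4630 in KO3 and 496, 640 and 546 in WT, a log2 fold change of 2.98 (SE 0.09). Ppp1r15a, which directs the phosphatase that reverses the translation block, had 3849, 3735 and 4018 in KO3 and 816, 828 and 798 in WT, a log2 fold change of 2.25 (SE 0.06). All KO3 libraries lay above all WT libraries for these genes. Atf4 itself rose by less, with 20620, 19127 and 22108 in KO3 and 12288, 15898 and 16478 in WT, a log2 fold change of 0.48 (SE 0.10, limma adjusted p = 0.00114).

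Further members of the list act in amino acid supply and tRNA charging. Slc7a11, whose window holds the ATF4 element on both strands, had 1700, 2011 and 1414 normalized counts in KO3 and 423, 365 and 340 in WT, a log2 fold change of 2.17 (SE 0.17). Chac1, which degrades glutathione, rose by 1.64 on the log2 scale, and Psph, Shmt2 and Cth, enzymes of serine, one-carbon and cysteine synthesis, by 1.48, 1.15 and 1.24. The amino acid exchanger genes Slc7a5 and Slc3a2 rose by 1.23 and 1.00. The tRNA synthetase gene Wars had 6427, 6268 and 6419 in KO3 and 2631, 2616 and 2839 in WT, a log2 fold change of 1.24, and Aars and Gars rose by 0.74 and 0.52. Psat1, of serine synthesis, rose by 0.29. Atf5, a related transcription factor, rose by 1.46, and Vldlr, a lipoprotein receptor, by 1.94. The amino acid transporter genes Slc7a3 (0.04) and Slc7a1 (0.11) did not pass the test. Of the 9 members whose window holds the ATF4 element, 9 rose. As 32 of all 34 tested members rose, this count cannot show a link to the element. Ddit3 and Shmt2 lie in a raised stretch of chromosome 10, and with the median of their neighbours subtracted they were at 2.54 and 0.70, both still called.

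**Figure D2:**
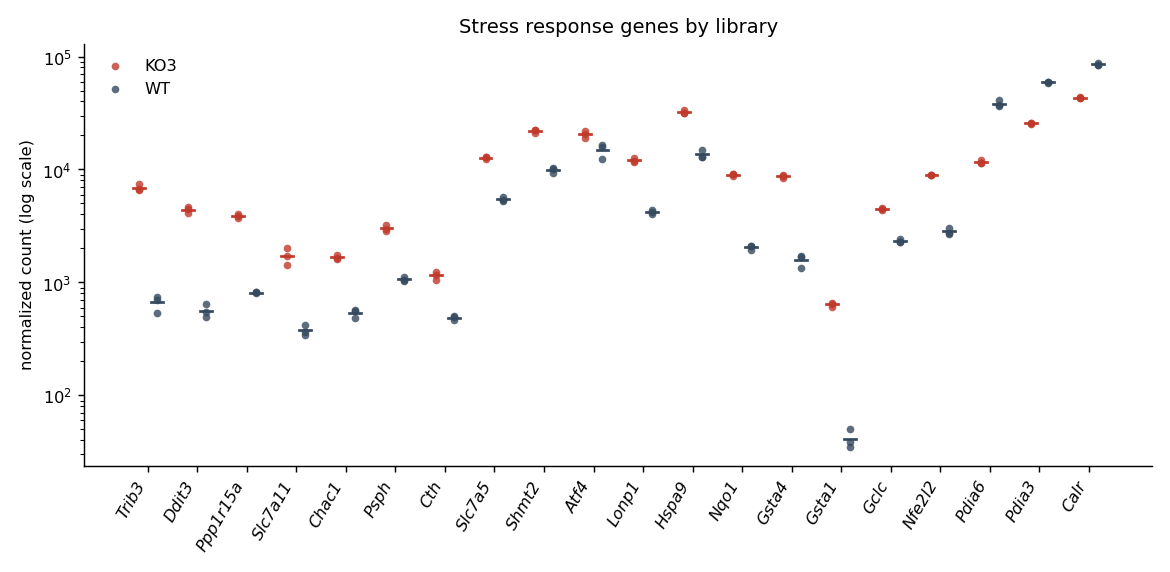
Each point is the normalized count of 1 library (log axis), with KO3 left of WT for each gene and a bar at the group mean (n = 3). Gsta1, Trib3 and Ddit3 show the widest gaps, with KO3 above WT by 3.93, 3.39 and 2.98 on the log2 scale, while Pdia6, Pdia3 and Calr lie lower in KO3.

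Mitochondrial chaperones and proteases split by gene. Of 11 tested, 6 rose and 2 fell (median 0.26), against 6 and 3 without WT replicate 1. Lonp1, the matrix protease, had 11850, 11766 and 12656 normalized counts in KO3 and 4011, 4217 and 4404 in WT, a log2 fold change of 1.52 (SE 0.05). Hspa9, the matrix Hsp70, and its partner Dnaja3 rose by 1.23 and 1.02, and Trap1, a matrix Hsp90, by 0.43. Hspd1, the matrix chaperonin, fell by 0.33, and its partner Hspe1 was at -0.13 without a call. The Hspd1 call was lost with its neighbours' median subtracted.

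Folding enzymes of the endoplasmic reticulum went the other way, with 3 of 20 up and 13 down (median -0.35). Pdia6, a disulfide isomerase, had 12190, 11476 and 11449 normalized counts in KO3 and 41221, 37209 and 36228 in WT, a log2 fold change of -1.71 (SE 0.07). Pdia3 and Pdia4, of the same family, fell by 1.20 and 0.93, and Calr, a lectin chaperone, by 0.99. Hspa5, which encodes BiP, differed by -0.20 (limma adjusted p = 0.0503). Herpud1 and Sel1l, of the degradation machinery, rose by 1.22 and 1.15.

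Antioxidant genes rose. Of 23 NRF2 targets and glutathione genes, 17 rose and 1 fell, with a median of 0.68. Nqo1, a quinone reductase, had 9198, 9030 and 8686 normalized counts in KO3 and 1943, 2084 and 2116 in WT, a log2 fold change of 2.13 (SE 0.06). Nfe2l2 had 8949, 8856 and 8996 in KO3 and 3021, 2710 and 2748 in WT, a log2 fold change of 1.66 (SE 0.05). The glutathione transferase Gsta4 rose by 2.46, Txnrd1, thioredoxin reductase, by 0.88, and Gclc and Gclm, the subunits of the enzyme that starts glutathione synthesis, by 0.94 and 0.68. Gsta3, whose window is shown above, had 421, 424 and 379 in KO3 and 0, 1.04 and 0.903 in WT, and passed the filter through KO3 only. Gsta1 rose by 3.93, but its near-identical family members may share reads. Hmox1, heme oxygenase, at 0.07 and Txn1, thioredoxin, at 0.02 did not pass the test. Gsr, glutathione reductase, fell by 0.19, a call lost on leaving out any 1 library. Prdx1, a peroxiredoxin, rose by 0.25, and the call was lost without WT replicate 1 or any 1 KO3 library.

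Cholesterol synthesis genes fell in KO3, 20 of 21, with 0 up and a median of -1.02. Hmgcs1 had 4237, 4245 and 4010 normalized counts in KO3 and 12710, 11022 and 10996 in WT, a log2 fold change of -1.47 (SE 0.06, limma adjusted p = 1.30e-09). Idi1, an isomerase of the pathway, fell by 1.81, and the later enzymes Cyp51 and Msmo1 fell by 1.36 and 1.32. The genes of sterol sensing fell with them, with Insig1 at -1.44, Srebf2, which encodes SREBP2, at -0.69, and the sterol carrier Stard4 at -1.36. Soat1, which esterifies cholesterol, fell by 1.09. Over the list of sterol uptake and SREBP control, 3 of 17 rose and 11 fell. Abca1, the cholesterol exporter, was at 3.37 and passed the filter through KO3 only. Tm7sf2, the 1 synthesis gene without a call, was at -0.29.

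Fatty acid synthesis genes fell more often than they rose, and oxidation genes rose more often. Of 16 synthesis and desaturation genes 1 rose and 10 fell, led by the elongase Elovl6 with 1527, 1550 and 1267 normalized counts in KO3 and 4959, 4200 and 4354 in WT (log2 fold change -1.64, SE 0.11). Of 22 oxidation genes 12 rose and 4 fell (median 0.33). Acot2, a mitochondrial acyl-CoA thioesterase, had 2426, 2318 and 2342 in KO3 and 316, 364 and 387 in WT, a log2 fold change of 2.73 (SE 0.10). Of 15 lipid droplet genes 8 rose and 1 fell, among them the droplet coat genes Plin4 and Plin2 at 1.85 and 0.81 and the triglyceride lipase Pnpla2 at 1.56. Chka, choline kinase, rose by 1.32, while Ptdss1, a phosphatidylserine synthase, fell by 0.76. The targeted gene, Crls1, was not part of the cardiolipin pathway count. Among the 17 pathway genes tested, 4 rose and 5 fell, close to the 27.9% and 28.3% of all genes. Of these, Lpcat4, a lysophospholipid acyltransferase, fell by 0.99.

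The genes with the largest rises in KO3 were low or undetected in WT. Mbnl3, a splicing regulator of the muscleblind family (chromosome X, 51117269 to 51206532), had 2958, 2730 and 2626 normalized counts in KO3 and 2.35, 4.14 and 0 in WT, a log2 fold change of 10.07. Ptprt, a receptor phosphatase, had 509, 828 and 834 in KO3 and 1 read over the WT libraries, a ratio of 2128 with a 95% exact counting interval of 382 to 84088. Ostn, a secreted peptide of bone and muscle, had 481, 487 and 417 in KO3 and 1 WT read, a ratio of 1353 (242 to 53469). Elmo1, a partner of Rac activators, was at 8.53 on the log2 scale, and Ablim3, an actin-binding protein, at 8.48. Of the genes in this paragraph, Mbnl3, Ptprt, Ostn, Elmo1, Ablim3 and Cpne4 passed the filter through KO3 only. Car6, a secreted carbonic anhydrase, had 5705, 5544 and 5666 in KO3 and 18.8, 26.9 and 19.9 in WT, and Pappa2, a protease of IGF-binding proteins, 6429, 6716 and 5739 in KO3 and 42.3, 37.3 and 20.8 in WT. Cpne4, a calcium-binding copine, had 1 WT read and a ratio of 747 (134 to 29558). Intervals and bounds on reads cover counting error only.

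Serpins of the granzyme inhibitor family on chromosome 13 were high in KO3, and Serpinb9c, Serpinb9d and Serpinb9e passed the filter through KO3 only. Serpinb9d had 846, 862 and 850 normalized counts in KO3 and 2 reads over WT, a ratio of 1245 (95% exact counting interval 344 to 10288). Serpinb9e was at 8.10, and Serpinb9g rose by 7.53. Serpinb9c had 224, 265 and 228 in KO3 and 0 reads in WT, so it was at least 233-fold higher against a floor of 3 reads over the WT group. These paralogs are near-identical, and reads may be shared among them.

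The genes with the largest differences downward were nearly silent in KO3, and those named here, apart from Plce1, passed the filter through WT only. Tuba4a, an alpha-tubulin (chromosome 1, 75214228 to 75219865), had 0, 0 and 1.07 normalized counts in KO3 and 1773, 1775 and 1689 in WT, a log2 fold change of -10.42. Enpp5, a nucleotide pyrophosphatase family member, had 0, 3.51 and 0 in KO3 and 1676, 1647 and 1460 in WT. P2ry14, a receptor for UDP-sugars, was at -9.04, and Plce1, a phospholipase C, at -8.94. Ncan, a brain proteoglycan, had 2.07, 0 and 3.20 in KO3 and 916, 815 and 930 in WT. Abca3, a lipid transporter, Sulf1, a heparan sulfatase, Lrch2 and Sall2, a zinc-finger factor, had 0 reads in KO3 and were at least 356-fold, 333-fold, 301-fold and 283-fold lower against a floor of 3 reads over the KO3 group. Fmr1nb and Mboat1, an acyltransferase, were both at -8.20 on the log2 scale, and Tnfsf18, a TNF ligand, at -8.06.

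Gains and losses in count are given for nuclear protein-coding genes whose libraries did not overlap. Eef2, the elongation factor, had 239481, 230567 and 247825 normalized counts in KO3 and 141387, 144615 and 143454 in WT, a log2 fold change of 0.74 (SE 0.06). Fth1, ferritin heavy chain, rose by 1.56, and Psap, prosaposin, by 0.65. Rps12-ps3 rose by 0.96, but its reads may come from Rps12. Fbln2 and Efemp1, fibulins of the matrix, rose by 3.10 and 1.23. The largest loss among them was Thbs1, thrombospondin 1 (chromosome 2, 118111876 to 118127133), with 19855, 19738 and 17782 in KO3 and 370662, 340389 and 345607 in WT, a log2 fold change of -4.20 (SE 0.10). Col1a2 and Col5a2, collagen chains, fell by 0.41 and 1.00. Rpsa, a ribosomal protein, differed by -0.53 and lost its call with the neighbours subtracted (-0.13).

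Matrix genes fell more often than they rose. Of 29 matrix glycoproteins and proteoglycans, 10 rose and 17 fell (median -0.44), and of 19 collagen chains 5 rose and 10 fell. Bgn, biglycan, had 46196, 48317 and 50320 normalized counts in KO3 and 184417, 192413 and 186177 in WT, a log2 fold change of -1.96. Mgp, an inhibitor of calcification, fell by 4.34. Col3a1 rose by 4.62. Postn, periostin, had 138, 153 and 152 in KO3 and 0, 6.21 and 0.903 in WT, a log2 fold change of 5.95, and passed the filter through KO3 only. Of 26 proteases and inhibitors, 10 rose and 13 fell. Plau, a plasminogen activator, had 409, 402 and 400 in KO3 and 1903, 1968 and 2010 in WT, a log2 fold change of -2.28. Adamts15, a proteoglycan-cleaving protease, rose by 4.65. Of 16 integrins 6 rose and 8 fell, with Itga6 up by 2.52 and Itga8 down by 2.40.

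Genes of the TGF-beta, contractile and YAP lists fell more often than they rose. Of 28 TGF-beta and BMP genes 5 rose and 17 fell. Inhba, which forms activin A, had 698, 727 and 584 normalized counts in KO3 and 10209, 9054 and 9337 in WT, a log2 fold change of -3.83 (SE 0.10). Of 23 smooth muscle contractile genes 4 rose and 16 fell. Tagln, transgelin, had 22.8, 21.9 and 23.4 in KO3 and 260, 272 and 254 in WT, and Myh10, a non-muscle myosin, fell by 1.87. Of the 4 members whose window holds the CArG box, 2 fell, 1 rose and 1 was not called. The list of YAP and TEAD targets also holds the regulators Yap1, Wwtr1, Tead1, Tead2, Tead3 and Tead4. Of its 21 tested genes 6 rose, Wwtr1 among them, and 10 fell, Tead3 among them, against 6 and 8 without WT replicate 1. Ccn2 and Ccn1, secreted matrix proteins, fell by 2.25 and 1.19, and Nuak2, a kinase, by 1.94. Of the 11 members whose window holds the TEAD motif, 6 fell, 3 rose and 2 were not called. Amotl2 fell by 0.83 and Crim1 rose by 0.65. Among the falls, Ankrd1 (-0.19) and Axl (-0.17) lost their call without WT replicate 1 or any 1 KO3 library.

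Most tested genes of the adipocyte list rose, and most of the skeletal list fell. Of 18 genes in the adipocyte list, which also holds preadipocyte genes, 8 were not tested. Of the 10 tested, 7 rose and 0 fell. Pparg, the adipocyte regulator, had 537, 557 and 547 normalized counts in KO3 and 41.2, 34.2 and 40.6 in WT, a log2 fold change of 3.79 (SE 0.11). Dlk1, a preadipocyte factor, had 24031, 23716 and 28626 in KO3 and 1436, 1658 and 1685 in WT, and Lpl, lipoprotein lipase, rose by 2.30. Fabp5, a fatty acid carrier, was at 0.02 without a call. Of 10 skeletal genes 2 rose and 8 fell, with Tnfrsf11b, which encodes osteoprotegerin, at 91.2, 83.4 and 45.8 in KO3 and 3795, 3391 and 3447 in WT (-5.63). Runx2, the osteoblast regulator, fell by 0.51, a call lost with the neighbours subtracted. Of 33 mesenchymal transcription factors 12 rose and 14 fell, among them Foxf1 up by 4.38, Gata4 up by 2.06 and Foxp1 down by 1.13.

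Some markers of other cell types were present in both groups. Of these lists, 4 of 14 epithelial, 3 of 13 endothelial, 5 of 13 haematopoietic, 3 of 15 skeletal muscle and 3 of 15 neural and glial markers were tested. Epithelial markers summed to 400 to 425 normalized counts in KO3 and 113 to 132 in WT, and Cdh1 held most of the KO3 value while Krt8 held most of the WT value, with Cldn4 at 0 in all 6 libraries. Endothelial markers summed to 293 to 389 in KO3 and 281 to 309 in WT, with Emcn, Cldn5, Sox17 and Sox18 at 0. Haematopoietic markers summed to 1204 to 1429 in KO3 and 1939 to 2208 in WT, most of it Lyz2, which averaged 1033 in KO3 and 1280 in WT, with Laptm5 and Cd3e at 0. Skeletal muscle markers summed to 217 to 224 in KO3 and 966 to 1215 in WT, most of the WT value Tnnt2, with Myod1, Mymk, Actc1 and Ckm at 0. Neural and glial markers summed to 308 to 408 in KO3 and 156 to 172 in WT, with Sox2, Sox10, Olig1, Olig2, Map2 and Snap25 at 0. Their part in the gene changes above was not tested.

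**Figure D3:**
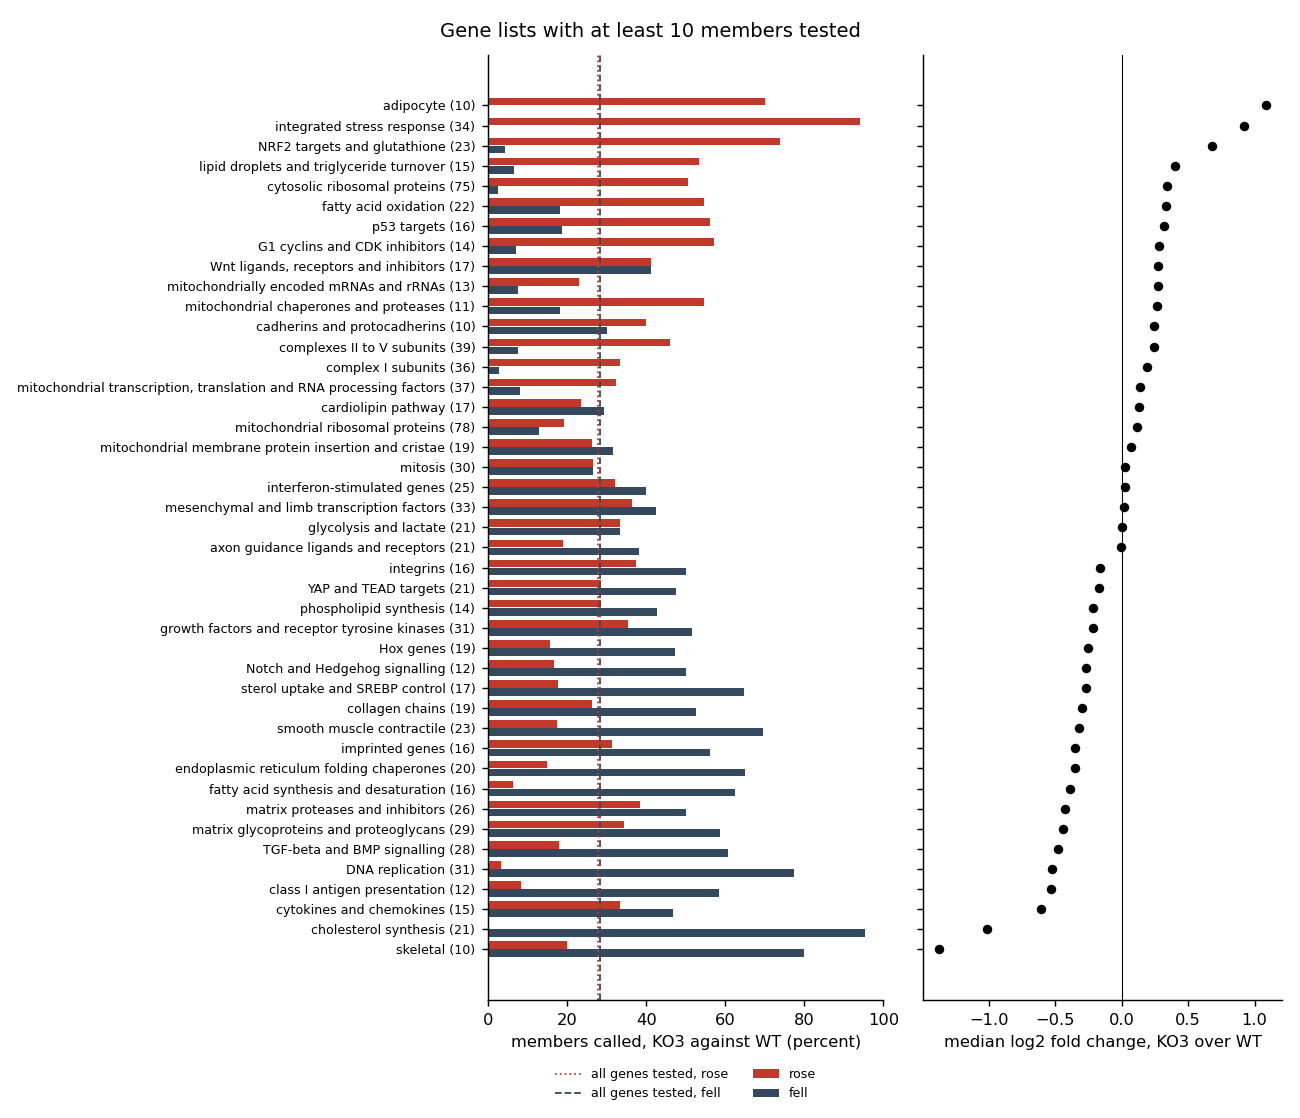
Left, the percent of tested members of each list that rose or fell in KO3 against WT, with the share of all genes tested as lines; right, the median log2 fold change of the list. The number tested follows each name. Among these lists, each with at least 10 members tested, the integrated stress response has the highest share that rose (32 of 34) and cholesterol synthesis the highest share that fell (20 of 21).

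Replication genes were lower in KO3 than in WT while mitosis genes were mixed. Of 31 DNA replication genes 1 rose and 24 fell. Pcna, the sliding clamp, had 4861, 5062 and 4649 normalized counts in KO3 and 9039, 9563 and 9215 in WT, a log2 fold change of -0.93, and the helicase subunits Mcm6 and Mcm5 fell by 0.97 and 0.96. Of 30 mitosis genes 8 rose and 8 fell, close to the 27.9% and 28.3% of all genes. Cdk4, which drives entry into the cycle, rose by 0.49 but lost its call with the neighbours subtracted. The inhibitor genes Cdkn1a and Cdkn1b rose by 0.38 and 0.28. Replication, mitosis and division rates were not measured.

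Counts for ribosomal and respiratory genes depended on WT replicate 1 and on the libraries in the fit, and are set beside 27.9% and 28.3% of all genes that rose and fell. Of 75 cytosolic ribosomal proteins 38 rose and 2 fell (median 0.34), but 29 rose and 3 fell without that library (median 0.17), and 25 rose and 1 fell in a fit of the KO3 and WT libraries alone. Of 36 complex I subunits 12 rose and 1 fell, against 11 and 5 without it, with the median at 0.19 and 0.03. Of 39 subunits of complexes II to V 18 rose and 3 fell, against 14 and 5 without it. The ATP synthase gene Atp5b rose by 0.59, a call lost with the neighbours subtracted. Of 78 mitochondrial ribosomal proteins, the genes nearest to the series title, 15 rose and 10 fell, and without WT replicate 1, 12 rose and 20 fell, with the median at 0.12 and -0.05. In the fit of KO3 and WT libraries alone 8 rose and 6 fell. None of them moved by 2-fold. Of 13 transcripts of the mitochondrial genome 3 rose and 1 fell (median 0.27), against 4 and 2 without WT replicate 1 (median 0.00). Among them, mt-Co1, a cytochrome oxidase subunit, had 778666, 795229 and 782054 in KO3 and 564703, 571077 and 554753 in WT (0.48), and mt-Rnr1, the small ribosomal RNA, rose by 1.32 with WT values of 13776, 3480 and 10468.

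Immune genes did not move as a block. Of 25 interferon-stimulated genes 8 rose and 10 fell. Oas1a, an antiviral sensor, had 4.15, 2.63 and 5.33 normalized counts in KO3 and 142, 163 and 157 in WT (-4.98) and passed the filter through WT only, and Trim30a rose by 0.62. Of 12 class I antigen presentation genes 1 rose and 7 fell, with B2m, its light chain, at -0.52 (-0.12 with the neighbours subtracted, not called) and H2-T23 at 0.94. Of 15 cytokines and chemokines 5 rose and 7 fell. Csf1, the macrophage growth factor, had 9150, 10145 and 9612 in KO3 and 32299, 26951 and 27402 in WT (-1.58), and the chemokine Cxcl5 rose by 2.46. Growth factor and receptor genes split as well, with 11 of 31 up and 16 down: Hgf rose by 4.69 and Igfbp4 by 3.79, while Fgf7 and Fgfr2 fell by 2.35 and 2.00.

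KO3 was also tested against the mean of KO1 and KO2. Of the same 14157 genes, 7444 (52.6%) differed, 3757 (26.5%) higher and 3687 (26.0%) lower in KO3, and by at least 2-fold 490 (3.46%) were higher and 742 (5.24%) lower. The filter left out genes expressed only in KO1 or KO2, so these counts depend on it. KO3 lay outside all 9 other libraries for 3098 genes (21.9%). Of these, 2317 were protein-coding genes with a mean of at least 100 that passed both tests in the same direction.

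Stress lists differed in level between KO3 and the mean of KO1 and KO2. Each list count in this paragraph is to be read against 26.5% of all genes higher and 26.0% lower in KO3. In KO3, 33 of 34 integrated stress response genes were higher than the mean of KO1 and KO2 and 0 were lower, with a median difference of 1.02. Trib3 averaged 6900 normalized counts in KO3, 1869 in KO1, 403 in KO2 and 665 in WT, and Slc7a11 1708 in KO3, 394 in KO1, 177 in KO2 and 376 in WT. Of 23 NRF2 genes 17 were higher and 2 lower in KO3, and of 20 folding chaperones of the endoplasmic reticulum 4 were higher and 13 lower (median -0.34). Nfe2l2 averaged 8934 in KO3, 5597 in KO1, 5701 in KO2 and 2826 in WT. Mitosis genes were higher in KO3 for 23 of 30, and DNA replication genes for 18 of 31 with 1 lower. Of 25 interferon-stimulated genes 0 were higher and 19 lower, with Oas1a at 4.04 in KO3, 311 in KO1, 106 in KO2 and 154 in WT. Of 21 cholesterol synthesis genes 2 were higher and 11 lower, with Hmgcs1 at 4164 in KO3, 5707 in KO1, 4364 in KO2 and 11576 in WT. These contrasts share the KO3 libraries with the comparison to WT.

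**Figure D4:**
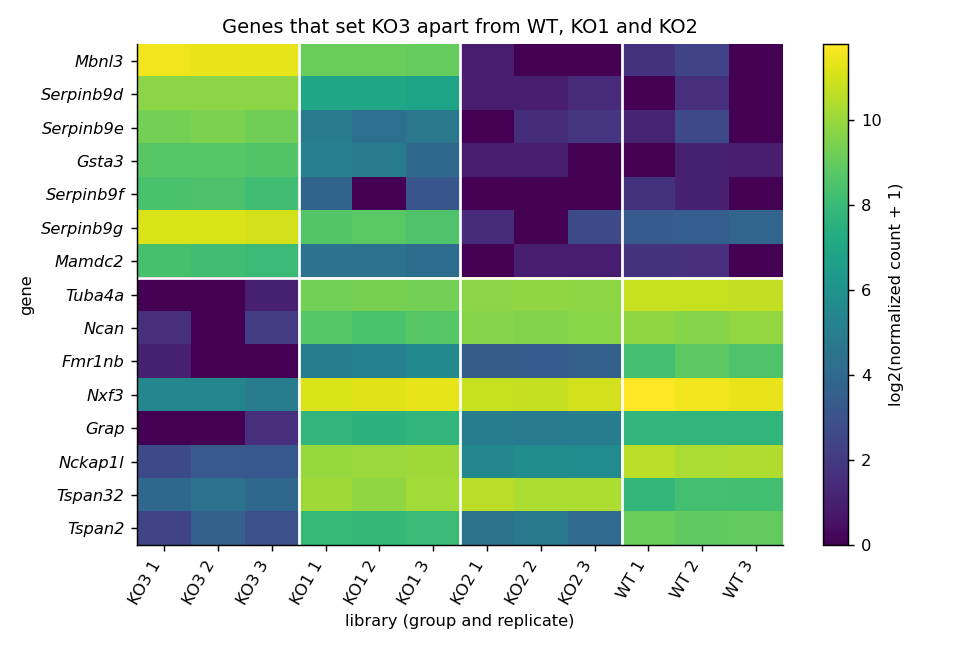
Rows are 15 of the genes that most set KO3 apart by the naming rule, columns the 12 libraries by group, and colour the log2(normalized count + 1). The 7 genes above the line are highest in KO3 and the 8 below are lowest in KO3.

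Tubulin, export, glutathione and splicing genes were among those that set KO3 apart. Tuba4a averaged 0.355 in KO3, 637 in KO1, 891 in KO2 and 1746 in WT. Nxf3, an RNA export factor family member, averaged 38.6 in KO3, 2452 in KO1, 1849 in KO2 and 3107 in WT. Tspan32, a tetraspanin, averaged 16.5 in KO3, 1063 in KO1, 1362 in KO2 and 276 in WT, so KO1 and KO2 stood on the other side of WT. Gsta3 averaged 408 in KO3, 25.5 in KO1, 0.630 in KO2 and 0.646 in WT, and Mbnl3 2772 in KO3, 537 in KO1, 0.311 in KO2 and 2.16 in WT. Other changes were shared: Dlk1 averaged 25458 in KO3, 18373 in KO1, 25883 in KO2 and 1593 in WT.

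Fold changes also followed position. On chromosome 10, 375 of 710 genes rose and 105 fell (median 0.32), with medians of 0.14 in KO1 and -0.01 in KO2. On the X chromosome 62 of 462 rose and 236 fell (median -0.29), with medians of 0.04 in KO1 and 0.05 in KO2. Chromosome 13 (median -0.29) and chromosome 3 (-0.26) were also low, with KO1 and KO2 at -0.24 and -0.35 on chromosome 13 and at -0.21 and -0.29 on chromosome 3. Among 1325 overlapping runs of 50 neighbouring genes the lowest median was -0.64, on the X chromosome from 134588149 to 144374450 (Gla to Alg13), where 38 of 50 genes fell and the medians were -0.05 in KO1 and -0.18 in KO2. The highest was 0.60, on chromosome 12 from 110737944 to 116146261, where 36 of 50 rose and KO1 and KO2 were at 0.28 and 0.47. After subtraction of the neighbours' median, Nxf3 and Bgn on X were at -5.75 and -1.78 and Mbnl3 at 10.32.

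**Figure D5:**
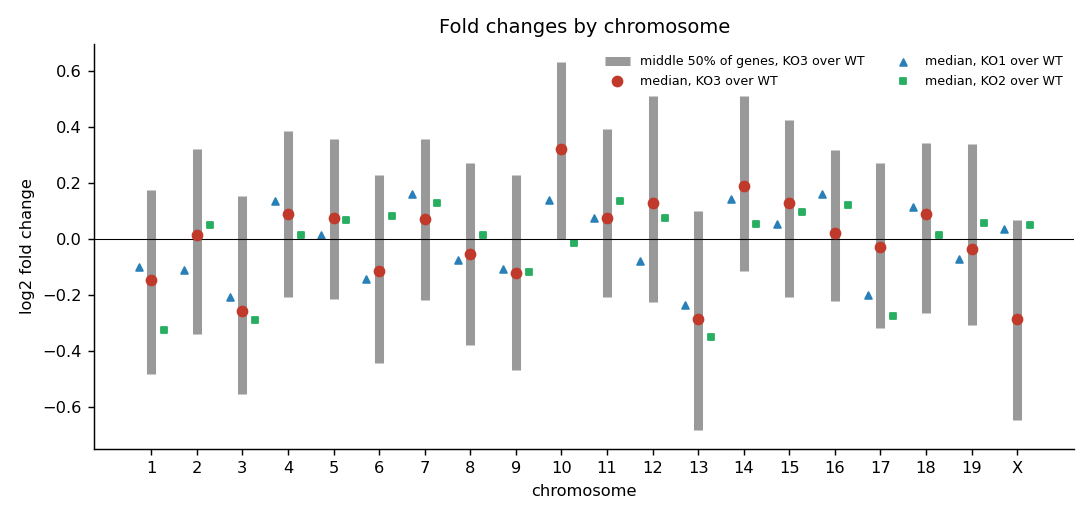
For each chromosome, the median log2 fold change over WT of KO3 (circle, with a bar for the middle 50% of genes), KO1 (triangle) and KO2 (square). Chromosome 10 is highest in KO3, at 0.32, and X and 13 are lowest, at -0.29.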

How the data were processed

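NIH-3T3 total RNA libraries of KO3 and WT (3 each) were compared, with KO1 and KO2 (3 each) in the same fit. The submitters' processing notes name GRCm38 (mm10) as the build and, as tools, DESeq2 1.24.0, Salmon 0.14.1 and cutadapt. No label gives their settings or whether counting used strand, so overlapping and antisense genes are uncertain. The authors deposited normalized counts, a signal of at least 0 with 1 size factor per library. They also deposited log2 fold changes with standard errors and p-values with adjusted p-values for KO3 against WT, used here only as an alternative to the fit. Of the deposited values, 99.94% to 99.99% were whole multiples of the library's smallest step within 0.02, which gave whole reads and the depth. Salmon reads are estimates, so reads and zeros may be rounded.

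Fold changes are differences of log2(value + 1), which understate low genes. Limma 3.58.1 (R 4.3.3) used a prior variance that follows the mean level, in 1 fit of the 12 libraries with 8 residual degrees of freedom. Two-sided p-values were adjusted by Benjamini and Hochberg's method (Benjamini-Hochberg) across the 14157 genes, at a threshold of 0.05, and the method was tested on simulated data. Symbols and positions come from GENCODE M21, which lacks 35 of the identifiers. Alternatives were edgeR 4.0.16 and DESeq2 1.42.0 on the recovered reads, other pseudocounts, filters and normalization, subtraction of the median of 50 neighbouring genes, the authors' table and leaving out each library. The members and lists were chosen with earlier results of these data known. Genes were named by rule: Crls1, the 12 largest rises and falls, the 6 largest gains and losses in count, the 8 rises and falls most distinct for KO3 (protein-coding, mean of at least 100, no overlap), and up to 8 members per list by adjusted p and mean. List members named outside the rule, the ATF4 and antioxidant motif searches and the windows printed were chosen after their values were seen. Some genes that meet the rule are not reported here.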

Additional observations from a re-analysis of the deposited data

Results flagged for a closer look

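Values here are log2 differences of KO3 from the mean of KO1 and KO2, picked because a test of the difference between clones passed. In all, 3757 genes were higher and 3687 lower in KO3. The named rises were 6.74 for Mbnl3, 5.70 for Serpinb9d, 6.48 for Serpinb9e, 7.20 for Serpinb9f, 6.09 for Serpinb9g, 6.03 for Gsta3 and 5.72 for Mamdc2. The named falls were -9.21 for Tuba4a, -7.90 for Ncan, -4.04 for Fmr1nb, -5.76 for Nxf3, -5.76 for Grap, -4.78 for Nckap1l, -6.11 for Tspan32 and -3.24 for Tspan2. For each of these genes the 3 KO3 libraries lay outside the other 9, because the naming rule required it. The genes were chosen on that rule and on these contrasts, so the values are a description.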

How the results depend on the processing

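The counts of genes that rose and fell in KO3 stayed within 1.5 times the reported counts under each alternative run. Leaving out 1 library gave 3514 to 4081 genes that rose and 3671 to 4089 that fell against WT, and 3156 to 4266 higher and 3163 to 4103 lower than the mean of KO1 and KO2. Crls1 lay between -1.16 and -1.04 without 1 library and between -1.10 and -0.86 under the other alternatives. The authors' deposited table called 7774 genes, of which 7698 were called here in the same direction and 0 in the opposite one. Of 7947 calls, 6324 stayed in the same direction and 68 turned with the neighbours' median subtracted. Among the named genes, Myh9 (-0.21) and Ryk (0.10) with the neighbours subtracted and Fabp5 without WT replicate 1 (-0.17) were called on the other side of 0. Of these, Myh9 and Fabp5 had no call in the reported fit. Under quantile normalization mt-Co1 was 0, because it is the highest value of each library. Deviations of same-numbered KO3 and WT libraries correlated at 0.06, -0.11 and 0.14, so the numbers were not taken to pair the samples; with the replicate block 3796 genes rose and 3888 fell against WT, 3593 were higher and 3550 lower than the mean of KO1 and KO2, and Crls1 was at -1.09. The 13 transcripts of the mitochondrial genome had no set of neighbours and so got no value in that alternative. With the neighbours subtracted, 2 of 17 cardiolipin pathway genes (Crls1 not counted) fell, and 11 of 39 subunits of complexes II to V rose and 0 fell. With KO3 and WT libraries alone, 2 of 22 fatty acid oxidation genes fell and 3 of 16 imprinted genes rose. Of 305 named genes called, 262 were called under every alternative that gave a value. Depth limits genes with a mean under 100, where the median SE was 0.32 on the log2 scale, against 0.07 above 1000.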

Other observations

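Of 16 p53 targets 9 rose and 3 fell in KO3, against 27.9% and 28.3% of all genes. Bbc3, a promoter of apoptosis, had 592, 507 and 632 normalized counts in KO3 and 200, 272 and 212 in WT, a log2 fold change of 1.34, and Mdm2, the inhibitor of p53, rose by 0.60. Trp53 itself was at 0.11 without a call. Of 21 glycolysis genes 7 rose and 7 fell, close to those shares of all genes. Ldha, lactate dehydrogenase, fell by 0.53, and Pfkfb3, which raises glycolytic flux, rose by 1.30.

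Patterning genes changed in both directions, and their counts are set beside 27.9% and 28.3% of all genes that rose and fell. Of 19 Hox genes 3 rose and 9 fell, with Hoxa3 at 638, 688 and 772 normalized counts in KO3 and 1835, 1325 and 1382 in WT. Of 16 imprinted genes 5 rose and 9 fell, among them Rtl1 down by 1.97 and Igf2r down by 1.47. Of 17 Wnt genes 7 rose and 7 fell, with Ror1, a receptor, up by 2.86 and Dkk3 down by 5.60. Of 21 axon guidance genes 4 rose and 8 fell, against 7 and 8 without WT replicate 1. Epha4, an ephrin receptor, fell by 2.64.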
